A study of Mus musculus with 4 samples.

Results

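Clec4e, Clec4d, Clec4n, Clec5a, Clec7a and Trem1 encode activating receptors of myeloid cells, and their RNA was followed across the leukocytes of mouse KPC tumours under 4 treatments. The 6 genes were selected on their unique molecular identifiers (UMIs, each marking 1 captured RNA molecule) in the same libraries that are described here, out of 33696 genes in the files, so every level and every difference below is a description and carries no test. All 6 were detected in all 4 libraries. KPC tumours derive from a mouse model of pancreatic carcinoma, and they were grown under the skin of C57BL/6 mice. The groups were untreated tumours, tumours given an agonist of STING (the cytosolic sensor of cyclic dinucleotides), tumours given an agonistic antibody against the lymphotoxin β receptor (LTβR), and tumours given the combination of both agents. Tumours of a group were pooled, live CD45+ cells were sorted, and each group is represented by 1 single-cell library. No difference between treatments therefore has a replicate check, and treatment cannot be told apart from the library that carries it.

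The 4 libraries held 8730 untreated, 15404 STING agonist, 14634 LTβR agonist and 16322 combination cells as deposited, with a median of 4712, 3187, 3730.5 and 2157.5 UMIs per cell in that order. Between 109 and 180 cell barcodes of each library were also present in another library. After filters 7516, 13441, 13225 and 14666 cells were kept. Clusters were named from marker genes, so the cells are called neutrophil-like, macrophage- and monocyte-like, and dendritic cell-like. Neutrophil-like cells made up 6.58% of the untreated leukocytes, 39.5% with the STING agonist, 7.23% with the LTβR agonist and 8.64% with the combination. Macrophage- and monocyte-like cells made up between 42.2% and 58.6%, and dendritic cell-like cells between 3.41% and 8.47%. The marker list of neutrophils summed to between 55928 and 84322 counts per 1000000 UMIs (CPM) in the neutrophil-like cells and to between 101 and 195 in the macrophage- and monocyte-like cells.

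C-type lectin receptors recognise sugars and glycolipids on microbes and molecules released by dying cells. Clec4e (Mincle) binds microbial glycolipids and the nuclear protein SAP130, Clec4d (MCL) is its close relative and can pair with it, and Clec4n (Dectin-2) binds mannans. These receptors use the Fc receptor γ chain, encoded by Fcer1g, as their adaptor. Clec7a (Dectin-1) binds β-glucans and carries its own tyrosine signalling motif in its tail. Clec5a (MDL-1) and Trem1 pair with DAP12, encoded by Tyrobp. Signals from all of these receptors pass through the kinase Syk, and those of the lectins reach NF-κB through the CARD9, BCL10 and MALT1 complex. In neutrophils and macrophages they are known to induce inflammatory cytokines and chemokines.

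The genes of Clec4n, Clec4d and Clec4e are neighbours. On the RefSeq annotation of mouse GRCm38.p6, Clec4n lies at chr6:123229843-123247024, Clec4d at chr6:123262107-123275268 and Clec4e at chr6:123281789-123289871, with 15082 and 6520 bases between them. Clec5a lies at chr6:40574898-40585805, Clec7a at chr6:129461591-129472785 and Trem1 on another chromosome at chr17:48232713-48246927. The levels of Clec4e, Clec4d and Trem1 followed each other most closely across myeloid subsets and libraries, so the 250 bases before the start that RefSeq's promoter table gives are shown, a start that for Trem1 lies inside the gene as annotated. Capitals mark matches, on either strand, to the letters of 4 motifs that myeloid promoters often carry and of the NF-κB motif.
Clec4e, chr6:123289872-123290121, minus strand: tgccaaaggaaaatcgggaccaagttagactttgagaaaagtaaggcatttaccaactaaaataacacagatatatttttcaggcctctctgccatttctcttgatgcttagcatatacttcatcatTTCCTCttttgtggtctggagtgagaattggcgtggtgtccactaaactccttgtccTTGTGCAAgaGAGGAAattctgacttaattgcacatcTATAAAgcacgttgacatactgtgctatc
Clec4d, chr6:123261857-123262106, plus strand: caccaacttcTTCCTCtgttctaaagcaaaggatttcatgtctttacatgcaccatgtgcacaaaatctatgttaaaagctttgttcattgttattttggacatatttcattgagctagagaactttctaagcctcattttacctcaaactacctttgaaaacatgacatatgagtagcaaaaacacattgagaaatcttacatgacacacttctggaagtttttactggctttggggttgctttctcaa
Trem1, chr17:48232489-48232738, plus strand: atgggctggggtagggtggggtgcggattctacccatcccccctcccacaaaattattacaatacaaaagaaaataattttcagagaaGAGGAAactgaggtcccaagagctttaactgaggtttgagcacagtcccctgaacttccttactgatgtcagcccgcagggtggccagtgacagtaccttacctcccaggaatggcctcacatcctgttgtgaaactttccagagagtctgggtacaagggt
The motifs searched were GAGGAA (PU.1), TTGCNNAA (C/EBP), TGANTCA (AP-1), TATAAA and, by name, the NF-κB motif. The Clec4e window held 2 GAGGAA matches, a TTGCNNAA match 66 bases before the start and a TATAAA match 29 bases before it. The Clec4d and Trem1 windows each held a single GAGGAA match. Of 32851 RefSeq promoter windows of this length, 23.3% held GAGGAA, 9.56% TTGCNNAA, 6.75% TGANTCA, 45.8% the NF-κB motif and 12.4% TATAAA. No match to TGANTCA or to the NF-κB motif was found in these 3 windows, which says only that those letters are not in them.

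Counted over all leukocytes of a library, Clec4e, Clec4d and Trem1 were far higher with the STING agonist than in any other library. Levels are given as CPM of the cells named. Clec4e stood at 155 CPM in the untreated library, 869.9 with the STING agonist, 217.5 with the LTβR agonist and 218 with the combination. Clec4d stood at 149, 768, 223 and 205 in the same order, and Trem1 at 104.5, 370.0, 151 and 169. The log2 ratio of STING agonist to untreated was 2.49 for Clec4e, 2.37 for Clec4d and 1.82 for Trem1. The other lectins moved less, with log2 ratios of 0.72 for Clec4n, 0.78 for Clec5a and 0.25 for Clec7a. All ratios add 0.5 UMI to each count, and the intervals given below are exact 95% intervals that cover counting error only.

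The cells that carried the RNA were not the same in each library. In untreated tumours 64.3% of the Clec4e UMIs of leukocytes lay in macrophage- and monocyte-like cells and 30.2% in neutrophil-like cells. With the STING agonist 37.8% lay in macrophage- and monocyte-like cells and 57.2% in neutrophil-like cells. Trem1 shifted from 22.3% to 54.8% in neutrophil-like cells, and Clec4d from 34.2% to 63.8%. Clec5a and Clec4n stayed mainly in macrophage- and monocyte-like cells, which held 79.4% of the Clec5a and 67.1% of the Clec4n UMIs even in the STING agonist library. When each class kept its own level but was weighted by its share of UMIs in the untreated library, the STING agonist log2 ratio of Clec4e over leukocytes was 1.46 in place of 2.49. The same weighting gave 1.15 for Clec4d and 0.86 for Trem1.

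**Figure D1:**
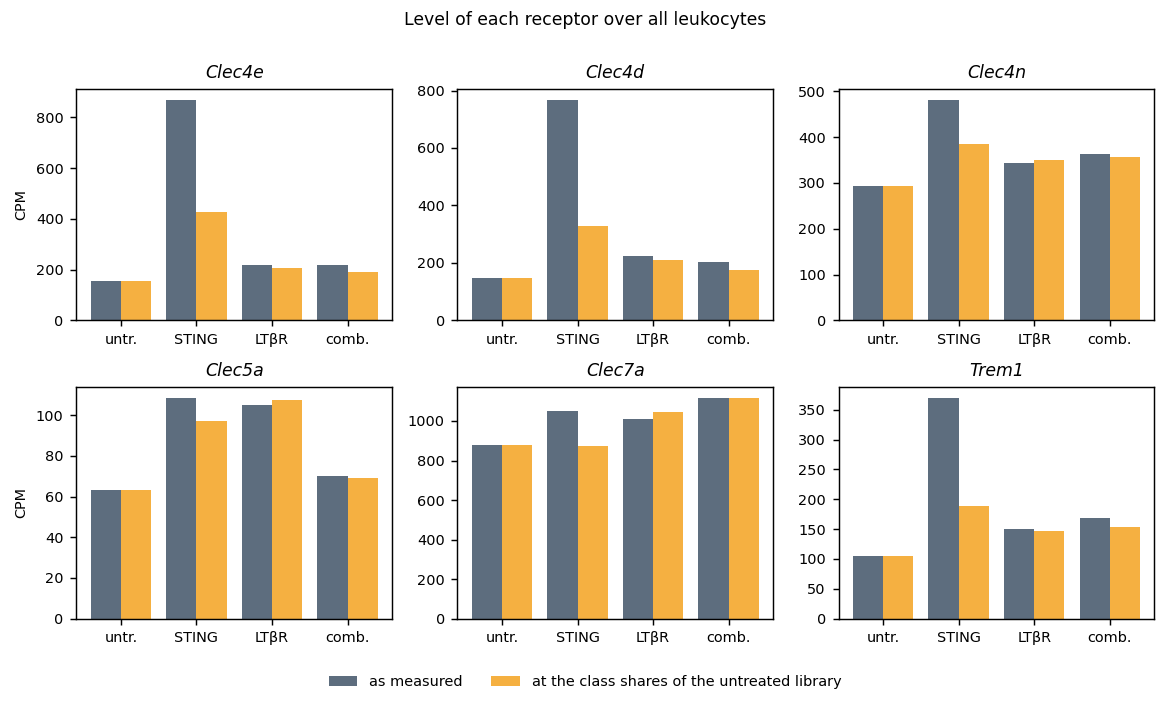
CPM of each receptor gene over all leukocytes in the 4 libraries (1 per group), as measured (grey) and with the class shares of the untreated library (orange), on axes that start at 0. The STING agonist bar of Clec4e drops from 869.9 to 425 once the class shares are held.

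Within neutrophil-like cells Clec4e, Clec4d and Trem1 stayed within 2-fold between all libraries. Clec4e stood at 2261 CPM (2164 to 2361) in untreated, 2750 (2721 to 2780) in STING agonist, 2042 (1974 to 2112) in LTβR agonist and 1841 (1772 to 1913) in combination neutrophil-like cells. The STING agonist library was the highest and the combination library the lowest, and the intervals of these libraries do not overlap. Clec4d stood at 2451, 2712, 2533 and 2285 CPM in the same order. Trem1 stood at 1122, 1122, 1143 and 1218, so the untreated and STING agonist values were alike. The log2 ratio of STING agonist to untreated was 0.28 (0.22 to 0.35) for Clec4e, 0.15 (0.08 to 0.21) for Clec4d and 0.00 (-0.09 to 0.09) for Trem1. These neutrophil-like values rested on 484 cells in the untreated library against 5225 with the STING agonist.

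Clec4n and Clec5a were lower in the neutrophil-like cells of all treated libraries, and Clec7a with the STING agonist and the combination. Clec4n stood at 1118 CPM (1050 to 1189) in untreated, 690.3 (676 to 705) in STING agonist, 636 (598 to 675) in LTβR agonist and 725 (682 to 770.4) in combination neutrophil-like cells. Every treated library lay below the untreated interval. Clec5a stood at 148 (124 to 176) in untreated, and at 85.4, 86.3 and 76.6 in the STING agonist, LTβR agonist and combination libraries. The Clec5a values rest on 134, 1029, 144 and 110 UMIs. Clec7a stood at 2296 in untreated, 1532 with the STING agonist, 2101 with the LTβR agonist and 1755 with the combination. The STING agonist log2 ratios were -0.70 (-0.79 to -0.60) for Clec4n, -0.80 (-1.06 to -0.53) for Clec5a and -0.58 (-0.65 to -0.52) for Clec7a, where the median of 4302 genes with at least 200 UMIs over the STING agonist and untreated libraries was -0.24. With the LTβR agonist Clec7a stood at -0.13 (-0.21 to -0.05), less than the shift of -0.19 that median-of-ratios scaling gives in that comparison. Markers of macrophages summed to 642 CPM in the untreated neutrophil-like cells and to 380.3, 430.3 and 629.6 in the treated libraries. At that share of macrophage RNA, the untreated neutrophil-like cells would hold 15.3 CPM of Clec4n out of the 1118 measured.

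Among neutrophil-like sub-clusters, summed over libraries, Clec4n and Clec5a were highest in a group led by Scimp, Gbp5, Klhl6 and Nr4a2, which no marker list named. It held Clec4n at 1804 CPM and Clec5a at 223 in these sums, to which the STING agonist library gave most cells, whereas the other neutrophil-like sub-clusters held Clec4n at 233 to 670.2 and Clec5a at 31.9 to 84.4. In the untreated library alone an activated sub-cluster of 21 cells held Clec4n at 1322 (63 UMIs) and Clec5a at 231 (11 UMIs), beside 1992 and 253 in the first. The first sub-cluster made up 30.6% of the neutrophil-like cells of the untreated library, 15.8% with the STING agonist, 11.7% with the LTβR agonist and 14.6% with the combination. Inside it Clec4n stood at 1992, 1819, 1543 and 1647 CPM in that order. With every sub-cluster weighted by its share of UMIs in the untreated library, a choice made after the data were seen, the log2 ratio of Clec4n was -0.27 for the STING agonist in place of -0.70, and that of Clec5a was -0.38 in place of -0.80. Mature neutrophil-like cells, named from Retnlg, Cxcr2 and related genes, held Trem1 at 1366, 1894, 1572 and 1557 CPM in untreated, STING agonist, LTβR agonist and combination tumours. Activated neutrophil-like cells, named from Ccl3, Ccl4 and related genes, held it at 678, 779, 728 and 875. Clec4e had the opposite order, at 1666 to 2217 in mature and 1946 to 3031 in activated neutrophil-like cells. Some sub-clusters counted as activated were led by interferon-response genes such as Ifit2 and Rsad2 or by heat shock genes such as Hspa1a.

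**Figure D2:**
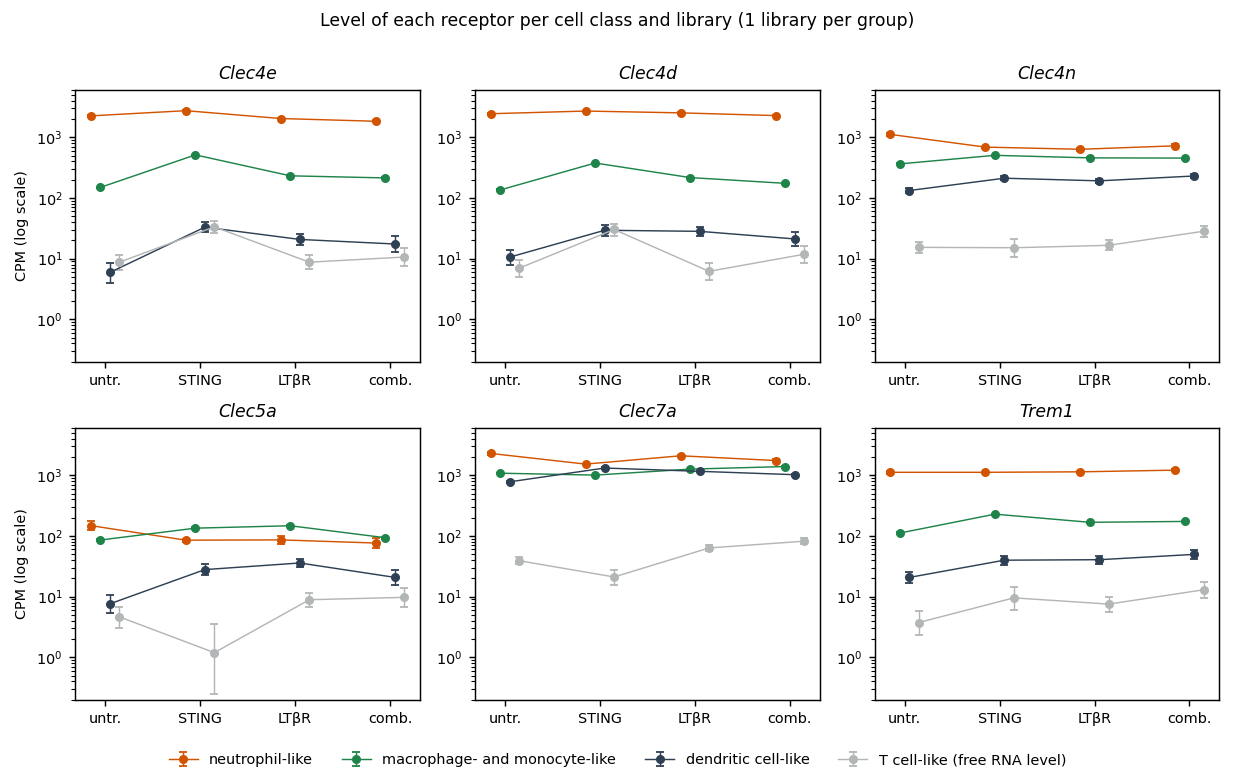
CPM (log axis) of each receptor gene in 3 myeloid classes and in T cell-like cells, by library (untreated, STING agonist, LTβR agonist, combination). Points are the summed counts of 1 library and bars are exact 95% Poisson intervals, which cover counting error only. Clec4e, Clec4d and Trem1 peak with the STING agonist in macrophage- and monocyte-like cells and stay within 2-fold of their untreated level in neutrophil-like cells.

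Summed over macrophage- and monocyte-like cells, Clec4e, Clec4d and Trem1 were higher in every treated library. Clec4e stood at 149.7 CPM (145 to 154) in untreated, 514 (507 to 521) in STING agonist, 232 (228 to 237) in LTβR agonist and 214 (209 to 219.6) in combination tumours. The STING agonist library lay far above the others, and both libraries with the LTβR agonist lay above the untreated one. Clec4d stood at 136, 378, 217 and 175 CPM in the same order. Trem1 stood at 112, 229, 168 and 174, with the same ranking of the STING agonist and untreated libraries. The log2 ratio of STING agonist to untreated was 1.78 (1.73 to 1.83) for Clec4e, 1.48 (1.43 to 1.53) for Clec4d and 1.03 (0.98 to 1.09) for Trem1. The median of all 10433 genes with at least 200 UMIs was -0.20 in this comparison. The LTβR agonist library exceeded untreated by a log2 ratio of 0.63 (0.58 to 0.69) for Clec4e, 0.68 (0.62 to 0.73) for Clec4d and 0.59 (0.53 to 0.65) for Trem1. With the combination they were 0.52, 0.36 and 0.64. With sub-cluster shares held as in untreated tumours, the LTβR agonist log2 ratios were 0.22, 0.30 and 0.38 in the same order of genes. Those of the combination were 0.27, 0.17 and 0.43. Not every sub-cluster was higher. In the largest of this class Clec4e stood at 64.4 CPM in untreated, 47.1 with the LTβR agonist and 47.5 with the combination.

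The RNA of neutrophils was measured in these cells, because a library rich in neutrophils could lend them receptor RNA. The neutrophil marker list (S100a8, S100a9, Retnlg and related genes) summed to 101 CPM in the untreated macrophage- and monocyte-like cells and to 195, 138 and 132 in the STING agonist, LTβR agonist and combination libraries. If all of it came from neutrophils, it would bring 4.10 of the 149.7 CPM of Clec4e in untreated tumours and 7.96 of the 514 with the STING agonist. For Trem1 it would bring 3.25 of 229 with the STING agonist. With that part subtracted, chosen as a check after the data were seen, Clec4e kept a log2 ratio of 1.80.

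The remaining lectins moved less in macrophage- and monocyte-like cells. Clec4n stood at 365 CPM in untreated and at 505, 459 and 455 in the treated libraries. Clec5a stood at 85.9 in untreated, 135 with the STING agonist, 148 with the LTβR agonist and 93.7 with the combination. Its LTβR agonist value was the highest of the libraries, and the combination lay close to untreated, with a log2 ratio of 0.13 (0.05 to 0.20). Clec7a stood at 1085, 1009, 1266 and 1397, and it is the only member whose STING agonist level in this class lay below the untreated level, by 0.10 on the log2 scale, which is less than the shift of the median gene.

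Of the 6 receptors, 3 were at least 2-fold higher in macrophage- and monocyte-like cells with the STING agonist, namely Clec4e, Clec4d and Trem1, where 4.66% of all genes with at least 200 UMIs passed that limit in either direction. With subset shares held as in untreated tumours Trem1 was no longer past 2-fold (0.58), and with sub-cluster shares held neither Trem1 (0.55) nor Clec4d (0.84) was, while Clec4e stood at 1.21. Because the genes were chosen by their behaviour in these libraries, this count describes them and adds no support. No member passed it with the LTβR agonist (1.45% of all genes) or the combination (1.72%) against untreated, nor between the combination and the LTβR agonist (0.506%). Clec4e and Clec4d were at least 2-fold lower with the combination than with the STING agonist, where 2.89% of genes passed. Their log2 ratios there were -1.26 (-1.30 to -1.22) and -1.11 (-1.16 to -1.07), and that of Trem1 was -0.40 (-0.45 to -0.35). Neither Clec4e nor Clec4d passed 2-fold there with shares held as in untreated tumours, at -0.99 and -0.83 for subset shares and -0.94 and -0.67 for sub-cluster shares. In neutrophil-like cells no member passed 2-fold in any of the 5 comparisons. The share of all genes that did was 6.69% for the STING agonist, 2.84% for the LTβR agonist and 1.31% for the combination against untreated, and 4.04% and 1.01% for the combination against the STING agonist and against the LTβR agonist. Clec5a came nearest, at -0.95 (-1.33 to -0.58) with the combination against untreated, where it passed under several other settings given with the sensitivity of the results.

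**Figure D3:**
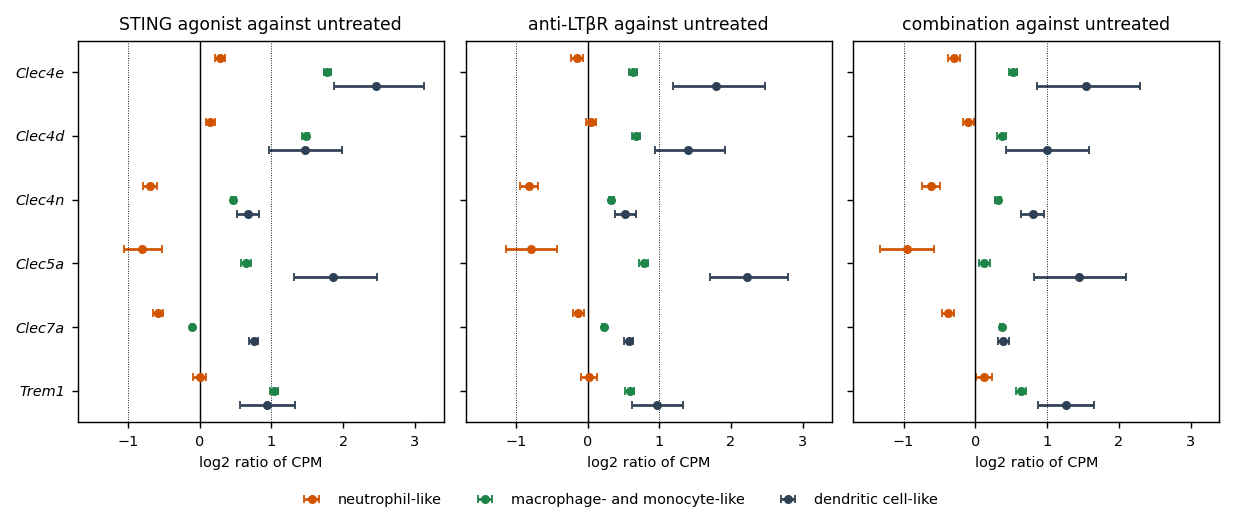
Log2 ratio of CPM of each receptor gene in each treated library to the untreated library, by cell class, with exact 95% intervals for counting error. The dotted lines mark 2-fold. Points of macrophage- and monocyte-like cells lie to the right of those of neutrophil-like cells for every gene in every panel.

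Within the class, 4 macrophage and monocyte subsets are described. Clec4e in untreated tumours ran from 62.1 CPM in C1q-high macrophage-like cells, which carry complement C1q, to 273 in Chil3 Vcan monocyte-like cells. MHC class II high Ccr2 monocyte-like cells stood at 99.9 and Mmp12 Gpnmb macrophage-like cells at 159. With the STING agonist the C1q-high, Mmp12 Gpnmb, Chil3 Vcan and MHC class II high subsets stood at 134, 265, 542 and 305. Clec4e was thus higher in each of these 4 subsets, with the log2 ratio smallest in Mmp12 Gpnmb and largest in MHC class II high Ccr2 cells.

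Clec4d and Trem1 had the same order of subsets only in part. Clec4d in untreated tumours was higher in Mmp12 Gpnmb macrophage-like cells (293 CPM) than in the other 3 of these subsets and lowest in C1q-high macrophage-like cells (67.5). Trem1 stood between 81.3 and 114 in the 4 subsets. With the STING agonist Clec4d rose to at least 2-fold its untreated level in the Chil3 Vcan (log2 ratio 1.30) and MHC class II high Ccr2 (1.21) monocyte-like cells, and stood 0.77 higher in C1q-high and 0.52 higher in Mmp12 Gpnmb macrophage-like cells. Among the 4 subsets Trem1 showed its largest difference in Chil3 Vcan monocyte-like cells, at 1.15 (0.99 to 1.31), and its smallest in Mmp12 Gpnmb cells, at 0.15 (-0.12 to 0.43). With subset shares held as in untreated tumours, the STING agonist log2 ratio of the whole class was 1.32 for Clec4e, 1.05 for Clec4d and 0.58 for Trem1. Cells of the class that no subset list named stood at 202 CPM of Clec4e in untreated and 888 with the STING agonist, a larger difference than in any of the 4 subsets. Their leading genes were Plcb1, Arhgap26 and Dgkg in the largest sub-cluster and Cd200, Serpinb2 and Hspa1b in the next.

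Clec5a in the monocyte-like subsets differed in direction between sub-clusters. In untreated tumours it stood between 61.4 and 98.7 CPM in the 4 subsets. In Chil3 Vcan monocyte-like cells Clec5a was 0.61 higher with the STING agonist and 0.62 higher with the LTβR agonist. In the largest sub-cluster of that subset, however, it stood at 39.3 CPM in untreated, 25.8 with the STING agonist and 30.4 with the LTβR agonist. Another of its sub-clusters grew from 31 untreated to 263 STING agonist cells and from 15 to 394 Clec5a UMIs. Inside it Clec5a stood at 62.2 CPM in untreated, 199 with the STING agonist and 248 with the LTβR agonist. In the sub-cluster led by Ifit1bl1 and Cmpk2, Clec5a stood at 124, 144 and 240 in that order. Summed over MHC class II high Ccr2 monocyte-like cells it was lower in every treated library, with log2 ratios of -0.60 (-0.82 to -0.39), -0.32 (-0.49 to -0.15) and -0.59 (-0.76 to -0.41) for the STING agonist, LTβR agonist and combination. The exception within that subset among its larger sub-clusters was one led by Ccl17, Dcstamp and other genes, with the dendritic cell marker Mgl2 and none of the subset's own markers among its 10 leading genes, where Clec5a stood at 113 in untreated and 122 with the LTβR agonist. With subset shares held as in untreated tumours, the STING agonist log2 ratio of Clec5a over the class was 0.08 in place of 0.65, and with sub-cluster shares held it turned to -0.06.

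**Figure D4:**
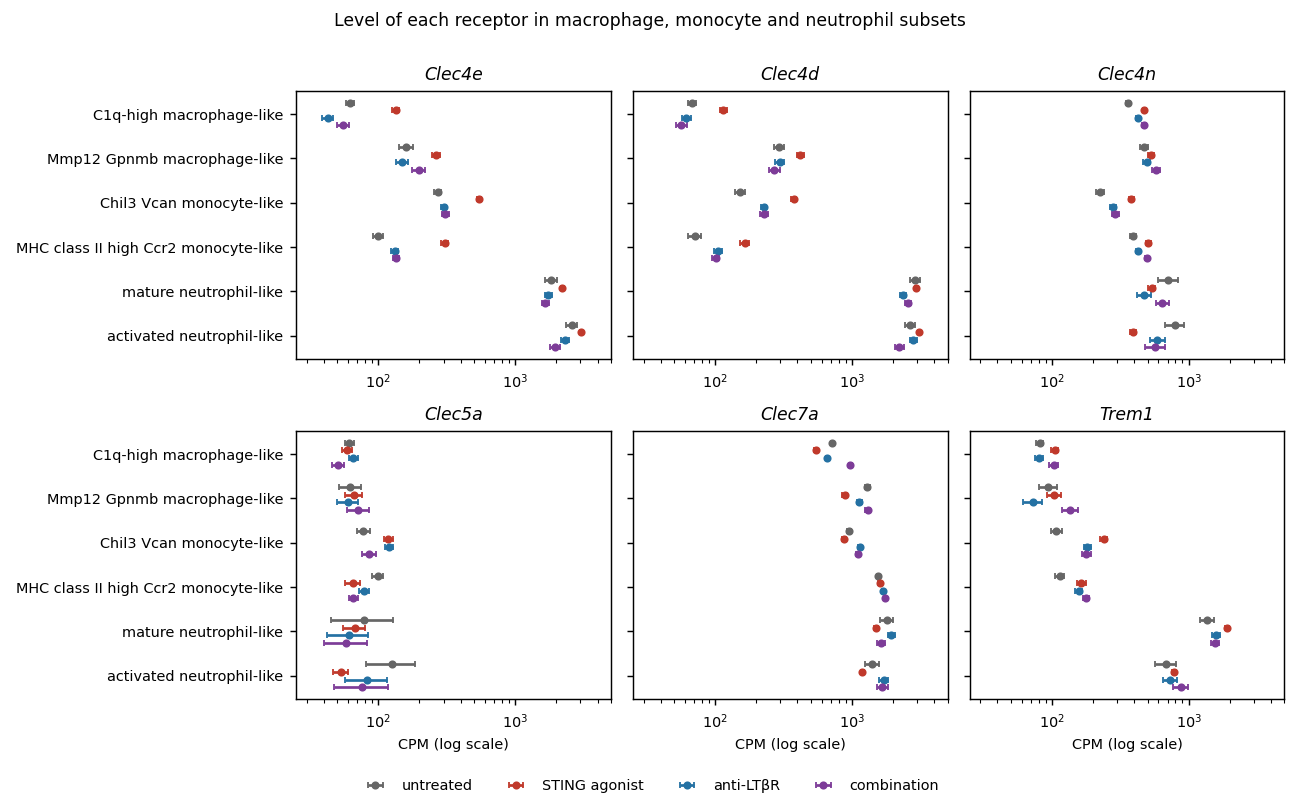
CPM (log axis) of each receptor gene in 4 macrophage and monocyte subsets and 2 neutrophil subsets, coloured by library, with exact 95% Poisson intervals for counting error. Clec4e spans from 42.7 in C1q-high macrophage-like cells of the LTβR agonist library to 3031 in activated neutrophil-like cells of the STING agonist library.

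Dendritic cell-like cells held mainly Clec7a and Clec4n. Clec7a stood at 782 CPM (757 to 808) in untreated, 1320 (1282 to 1358) in STING agonist, 1165 (1134 to 1196) in LTβR agonist and 1025 (987 to 1064) in combination tumours. All treated libraries lay above the untreated one, and their intervals do not overlap with it. Clec4n stood at 133, 212, 192 and 231 in the same order. With sub-cluster shares held as in untreated tumours, the log2 ratio of Clec7a was 0.44 (STING agonist), 0.32 (LTβR agonist) and 0.07 (combination). That of Clec4n was 0.35, 0.15 and 0.37. Type 2 conventional dendritic cell-like cells held Clec7a at 1214 in untreated tumours and mature dendritic cell-like cells at 1001, whereas plasmacytoid dendritic cell-like cells held 30.9, or 9 UMIs. Type 1 conventional dendritic cell-like cells stood at 493, and their sub-clusters were unlike, with 147 in that led by Xcr1 and 1712 in that led by Cdh17 and Cd101, summed over libraries.

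Clec4e and Clec4d in dendritic cell-like cells were near the level of some cells that should lack them. Clec4e stood at 5.94 CPM in untreated and 33.1 with the STING agonist, beside 8.76 and 33.5 in the T cell-like cells and 5.56 and 14.3 (8.86 to 21.9) in the NK cell-like cells of the same libraries. Clec4d stood at 29.4 with the STING agonist, beside 30.3 in T cell-like and 10.9 in NK cell-like cells. Dendritic cell-like cells of that library were thus alike to T cell-like cells in both genes and above NK cell-like cells. They lay below its B or plasma cell-like cells, which stood at 74.4 for Clec4e and 84.0 for Clec4d. In untreated dendritic cell-like cells 3 cells held 71.4% of the 28 Clec4e UMIs. With the LTβR agonist Clec4e stood at 20.8 against 8.76 in T cell-like cells, and an unnamed sub-cluster led by Gzma, Themis and other T cell genes gave 48 of its 100 UMIs. Without unnamed sub-clusters the LTβR agonist log2 ratio fell from 1.79 to 0.93. Neutrophil markers summed to 15.9 CPM in these cells in untreated, 318 with the STING agonist and 43.5 with the combination, with the LTβR agonist between the last pair. At that level neutrophil RNA could bring up to 39.2% of the Clec4e measured with the STING agonist. Markers of macrophages summed to 361 CPM in untreated and to 401, 691 and 757 in the STING agonist, LTβR agonist and combination libraries, at which macrophage RNA could bring up to 59.5%, 49.8%, 69.4% and 77.1% of the Clec4e measured. Clec5a and Trem1 were also low, at 7.63 and 20.8 in untreated and at most 35.9 and 49.8 in a treated library, where T cell-like cells stood at 4.65 and 3.75 in untreated.

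In dendritic cell-like cells 3 of the 6 members passed 2-fold against untreated with each agent, on few molecules. Clec4e, Clec4d and Clec5a passed with each single agonist, and Clec4e, Clec5a and Trem1 with the combination. Among genes with at least 200 UMIs, 1.48%, 1.25% and 1.72% passed for the STING agonist, LTβR agonist and combination. Only 3, 4 and 3 members reached 200 UMIs in these comparisons, of which 0, 1 and 1 passed. For the combination against the STING agonist and against the LTβR agonist no member passed, where 2.17% and 0.648% of genes did.

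Clec4e was detected in 76.4% of untreated, 82.5% of STING agonist, 76.6% of LTβR agonist and 64.8% of combination neutrophil-like cells. The median neutrophil-like cell held 1830, 2114, 1612 and 1031 UMIs, so each cell was also thinned to 1000 UMIs, which left out 81, 721, 170 and 581 cells. The thinned shares were 70.2%, 75.4%, 68.4% and 68.1%. In macrophage- and monocyte-like cells the share ran from 31.9% in untreated to 60.1% with the STING agonist, and from 12.1% to 30.3% once thinned. In T cell-like cells, which should lack the gene, 1.08% of untreated and 5.21% of STING agonist cells had a Clec4e UMI, at a median of 3398.5 and 3745 UMIs. Clec4d was the most widely detected of the 6 in neutrophil-like cells, with thinned shares of 84.4% to 87.3%. Clec5a was the least detected, at 6.34% to 11.7%.

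Most neutrophil-like cells held several of the receptors at once. At 1000 UMIs per cell, 95.3% of untreated, 92.2% of STING agonist, 94.2% of LTβR agonist and 93.8% of combination neutrophil-like cells had UMIs of at least 2 of the 6 genes. The share with 4 or more was 50.1%, 39.5%, 43.3% and 42.1%. In macrophage- and monocyte-like cells 29.1% had at least 2 in untreated, 49.7% with the STING agonist, 41.5% with the LTβR agonist and 41.7% with the combination. In T cell-like cells between 0.613% and 1.63% did. In B or plasma cell-like cells it was 0% in untreated, 5.80% with the STING agonist, 2.21% with the LTβR agonist and 4.04% with the combination. Clec4e and Clec4d were found together in 109 untreated macrophage- and monocyte-like cells, 2.14 times the number that their separate shares would give. That ratio was 1.38 with the STING agonist, 1.87 with the LTβR agonist and 1.81 with the combination. In neutrophil-like cells, where most cells hold both, it was between 1.02 and 1.03 in every library. For Clec4n and Clec7a in macrophage- and monocyte-like cells it was between 1.11 and 1.16.

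**Figure D5:**
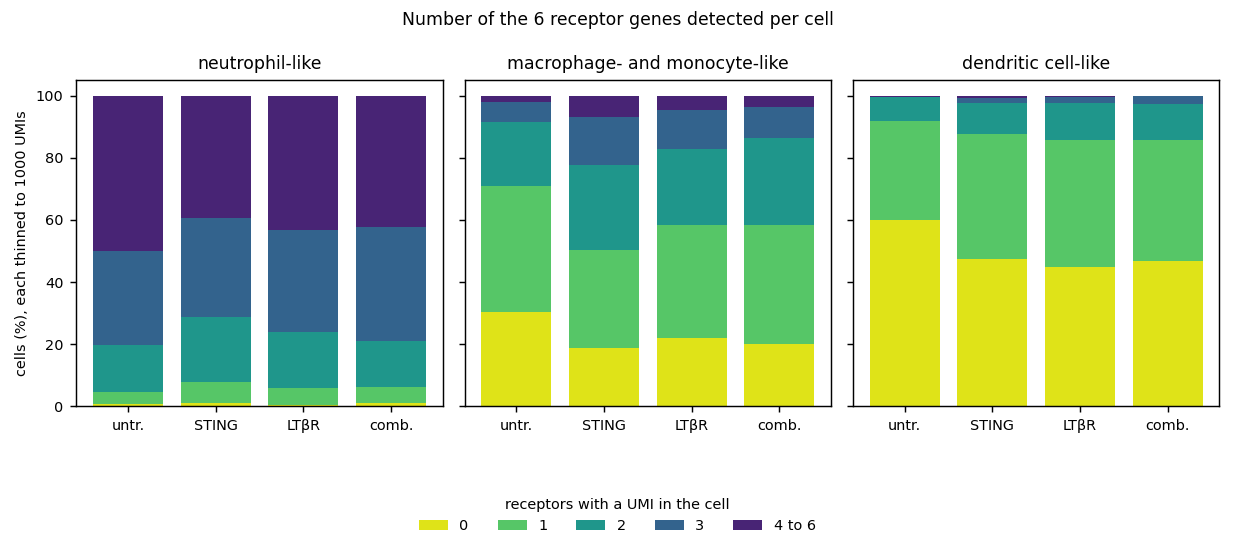
Percent of cells with UMIs of 0, 1, 2, 3 or 4 to 6 of the receptor genes, each cell thinned to 1000 UMIs, by class and library. Cells with at least 2 receptors fill 92.2% to 95.3% of the neutrophil-like bars, and the macrophage- and monocyte-like share with at least 2 rises from 29.1% in untreated to 49.7% with the STING agonist.

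In macrophage- and monocyte-like cells, none of the 9 adaptor and proximal signalling genes (Fcer1g, Tyrobp, Hcst, Syk, Lyn, Plcg2, Prkcd, Vav1 and Vav3) passed 2-fold in any of the 5 comparisons, a count near the background of 0.506% to 4.66% of all genes. Their median log2 ratio with the STING agonist was -0.03, beside -0.20 for all genes. Fcer1g, the adaptor of the Clec4 receptors, stood at 2269, 2501, 2143 and 1842 CPM in untreated, STING agonist, LTβR agonist and combination cells. Tyrobp, the adaptor of Trem1 and Clec5a, stood at 1452, 1506, 1484 and 1461. Malt1, the protease of the CARD9 complex, was higher in each treated library, at 862 in untreated and 1398, 1562 and 1612 in the others, and Card9 itself stood between 24.6 and 27.2. In neutrophil-like cells Plcg2, a phospholipase downstream of Syk, was the only gene of the 9 in the adaptor list past 2-fold. Its log2 ratio was -1.23 for the STING agonist against untreated, where 6.69% of all genes passed. It was 1.06 for the combination against the STING agonist, where 4.04% of all genes did.

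The ligand list held 3 genes. Pglyrp1, whose protein binds TREM1, stood at 623, 438.5, 909 and 689 CPM in neutrophil-like cells, and stood at 2.31, 3.96, 6.35 and 6.10 in macrophage- and monocyte-like cells. The latter passed 2-fold with the LTβR agonist and the combination, where 1.16% and 1.30% of all genes were at least 2-fold higher. A monocyte-like sub-cluster with Pglyrp1 among its 10 leading genes made up 0.76% of the class in untreated. Its share was 2.08% with the LTβR agonist and 1.59% with the combination. The part of this sub-cluster, or of neutrophil RNA, in the Pglyrp1 difference was not tested. Sap130, the nuclear ligand of Mincle, stood between 38.3 and 47.2 in macrophage- and monocyte-like cells, and Hmgb1 between 190.6 and 270.1.

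Transcripts known to follow ligation of these receptors were higher in macrophage- and monocyte-like cells with the STING agonist. All 13 genes of that list reached 200 UMIs there, 10 were at least 2-fold higher, none at least 2-fold lower, and the median log2 ratio was 1.70, where 2.40% of all genes were at least 2-fold higher and the median was -0.20. The list was drawn up with earlier results of these data known, and its genes answer many other stimuli. These ratios are of class sums and were not recomputed with subset or sub-cluster shares held. The part of the cell mix in them was not tested. Tnf stood at 62.4 CPM in untreated and 234, 80.2 and 66.6 in the STING agonist, LTβR agonist and combination libraries. Il23a, a subunit of interleukin-23, stood at 1.48, 37.9, 7.78 and 6.80. Il6 stood at 22.2, 108, 79.5 and 58.8, and was thus at least 2-fold higher in all treated libraries. Cxcl2, a neutrophil chemoattractant, stood at 1659, 6495, 2926 and 3040. With the LTβR agonist 3 of 12 genes were at least 2-fold higher (1.16% of all genes) and 1, Il12b, lower, and with the combination 4 of 12 were higher (1.30% of all genes). For the combination against the STING agonist 7 of 13 were at least 2-fold lower (1.03% of all genes). In neutrophil-like cells only Cxcl1 (2.59) rose and Egr3 (-1.24) fell 2-fold of 10 genes with the STING agonist, where 2.35% of all genes rose and 4.35% fell, and Il1b stood between 23062 and 26471 CPM in all libraries.

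The list of inhibitory or related genes held Clec4a1, Clec4a2, Clec4a3, Clec4b1, Clec12a, Cd300a and Ptpn6. None of these 7 genes passed 2-fold in macrophage- and monocyte-like cells in any comparison, again near the background of 0.506% to 4.66%. Their median log2 ratio with the STING agonist was -0.29. Clec12a, an inhibitory receptor for uric acid crystals, stood at 185, 95.7, 116 and 121 CPM. In neutrophil-like cells 1 of the 4 genes with enough UMIs, Clec12a, was at least 2-fold lower with the STING agonist against untreated (-1.10), where 4.35% of all genes were. It was at least 2-fold higher for the combination against the STING agonist (1.19), where 1.64% of all genes were. The median of the 4 with the STING agonist was -0.82, beside -0.24 for all genes. Of the TREM family, Trem2, which binds lipids and lipoproteins, stood at 191, 172, 129 and 119. Trem3 stood at 21.1, 40.2, 34.8 and 36.3.

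Across 44 sums of a myeloid subset in a library with at least 100 cells, drawn from 12 subsets, the genes whose log2 level was most like each member were sought among 12127 genes. These sums share libraries and are not independent. For Clec4e they were Smox (Pearson's r = 0.97), Clec4d (0.96), Rnf149 (0.96), Acod1 (0.96) and Cd14 (0.95). For Clec4d they were Rnf149, Ets2, Tiparp, Grina and Por, with r from 0.96 to 0.97. Trem1 was most like Ccr1 (0.97), Cxcl2 (0.96), Trem3 (0.96), Ets2 (0.95) and Srgn (0.94). Clec4n was most like C5ar1 (0.87), Cd14, Ccrl2, Ets2 and Plk3. Clec5a (Prdx5, Ikbke, App, Phlda1 and Tgm2, from 0.82 to 0.84) and Clec7a (Cast, Syk, Txnrd1, Ptafr and Abtb2, from 0.73 to 0.77) had weaker neighbours. Among the members themselves r ran from 0.41 for Clec5a and Clec7a to 0.96 for Clec4e and Clec4d, with 0.94 for Clec4d and Trem1 and 0.91 for Clec4e and Trem1.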

How the data were processed

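Single-cell RNA libraries of sorted CD45+ cells from pooled KPC tumours were analysed, 1 library for each of 4 groups taken from the labels. The values are raw UMI counts per gene and cell, deposited by the authors as filtered Cell Ranger matrices. The submitters' processing notes name Cell Ranger 7.1.0 and mm10, whereas the matrix headers name Cell Ranger 8.0.1. The labels also name another version of the 5' kit than the methods do. The 6 genes, the lists and the comparisons were chosen with earlier results of these data known. The genes named are the members, the list genes and, for each member, the 5 genes of most similar level.

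Cells with 300 to 5000 genes and at most 6% mitochondrial UMIs were kept. Scrublet's own threshold marked at most 1 cell a library, so the top scores were removed at 0.4% per 1000 cells. Counts were scaled to 10000 UMIs, and 2000 variable genes (without members, list genes and immunoglobulin, T cell receptor, mitochondrial and ribosomal genes), 30 components and 20 neighbours gave Leiden clusters at resolution 1 (scanpy 1.11.5, leidenalg 0.10.2, igraph 0.11.9). A cluster was named when at least 3 markers stood 2-fold above the median cluster (1.5-fold for subsets) in at least 10% of its cells. These limits were set after the data were seen. A macrophage subset is not reported here. Sub-clusters led by another class were taken out of the class in the main setting only. UMIs were summed per class and library and divided by the total, with exact Poisson, Clopper-Pearson and binomial intervals at 95%. Log2 ratios add 0.5 UMI. The background is the share of genes with at least 200 UMIs over both libraries that differ at least 2-fold. The ratio step was tested on simulated counts. Motifs were searched in RefSeq promoters, matched by symbol for 5 of the 6 members, with Clec4n not shown. Alternatives covered doublets, clustering, naming, scaling, depth, free RNA and minimum counts. Libraries totalled 52109958 to 85855398 UMIs. With 1 library per group no test was made, and intervals cover counting error only.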

Additional observations from a re-analysis of the deposited data

Results flagged for a closer look

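Several members moved in opposite directions in neutrophil-like cells and in other myeloid classes of the same libraries. A gene was singled out when its log2 ratio was above 0 in a class and below 0 in another, with both counting intervals clear of 0, values at least 2-fold apart and at least 200 UMIs in each class. The differences were not tested, since each group has 1 library. With the STING agonist against untreated, Clec4n had a log2 ratio of -0.70 in neutrophil-like, 0.47 in macrophage- and monocyte-like and 0.67 in dendritic cell-like cells. In the same comparison Clec5a stood at -0.80 in neutrophil-like and 0.65 in macrophage- and monocyte-like cells, and Clec7a at -0.58 in neutrophil-like and 0.76 in dendritic cell-like cells. With the LTβR agonist against untreated, Clec4n stood at -0.81, 0.33 and 0.53 in neutrophil-like, macrophage- and monocyte-like and dendritic cell-like cells. Clec5a stood at -0.78, 0.78 and 2.22 in the same order, the last on 36 untreated UMIs and with a range of 1.44 to 5.45 under the other settings. With the combination against untreated, Clec4n stood at -0.62 in neutrophil-like and 0.80 in dendritic cell-like cells, and Clec5a at -0.95 in neutrophil-like and 0.13 in macrophage- and monocyte-like cells. With sub-cluster shares held as in the untreated library, Clec5a in macrophage- and monocyte-like cells turned to -0.06 with the STING agonist and -0.08 with the combination, so that it no longer went against neutrophil-like cells, which stood at -0.38 and -0.64. With the LTβR agonist the same weighting of Clec5a gave 0.37 against -0.34, less than 2-fold apart, and 1.85 in dendritic cell-like cells. Clec4n with the LTβR agonist then stood at -0.30, 0.36 and 0.15 in neutrophil-like, macrophage- and monocyte-like and dendritic cell-like cells. With the combination it stood at -0.30 in neutrophil-like and 0.37 in dendritic cell-like cells. These Clec4n values kept opposite signs but were less than 2-fold apart. With the STING agonist Clec4n then stood at -0.27, 0.34 and 0.35 in neutrophil-like, macrophage- and monocyte-like and dendritic cell-like cells, and Clec7a at -0.42 in neutrophil-like and 0.44 in dendritic cell-like cells, so the signs were still opposite but the values less than 2-fold apart.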

How the results depend on the processing

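No paired analysis was possible because each group has 1 library. Of 90 single log2 ratios of members, 14 were at least 2-fold, and 164 of their 178 values under the alternatives stayed at least 2-fold. Alternatives that left out unnamed sub-clusters, cells with B or T cell marker UMIs, cells under 2000 UMIs or the neutrophil RNA share were chosen after seeing the data. In macrophage- and monocyte-like cells the STING agonist log2 ratio to untreated ran from 1.67 to 1.99 for Clec4e, 1.42 to 1.69 for Clec4d and 1.01 to 1.25 for Trem1. With sub-cluster shares held as in untreated tumours, also chosen after seeing the data, they were 1.21, 0.84 and 0.55, so Clec4d and Trem1 were no longer past 2-fold. The combination against the STING agonist then stood at -0.94 for Clec4e and -0.67 for Clec4d, neither past 2-fold. Holding sub-cluster shares also turned Clec5a in macrophage- and monocyte-like cells to -0.06 (STING agonist) and -0.08 (combination), and in neutrophil-like cells the small differences of Clec7a (0.01) and Trem1 (-0.09) with the LTβR agonist and Trem1 with the combination (-0.01). Among the ratios past 2-fold, Clec4d in dendritic cell-like cells, LTβR agonist against untreated, turned to -0.17 when each cell was named by its own markers.

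The count of members past 2-fold moved as follows, and the cause was not tested. In neutrophil-like cells it went from 0 to 1 for the LTβR agonist among cells of at least 2000 UMIs, and from 0 to 1 for the combination against untreated with thinning, subtraction of the T cell level, means of cells, members among the variable genes, or cells with B or T cell marker UMIs left out. In macrophage- and monocyte-like cells it went from 0 to 1 for the LTβR agonist with thinning. In dendritic cell-like cells it went from 3 to 1 for the STING agonist (naming cell by cell, or T cell level subtracted) and for the LTβR agonist (naming cell by cell, or unnamed sub-clusters left out). For the combination against the STING agonist it went from 0 to 1 without doublet removal, with thinning, T cell level subtracted, members among the variable genes, or unnamed sub-clusters left out. Against the LTβR agonist it went from 0 to 1 at resolution 2 and with thinning, and to 2 with naming cell by cell or the T cell level subtracted.

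With a minimum of 50 UMIs in place of 200, more genes passed 2-fold. In the order STING agonist, LTβR agonist and combination against untreated, then combination against the STING agonist and against the LTβR agonist, they were 1012, 208, 133, 581 and 81 in neutrophil-like cells (main 288, 51, 22, 177 and 20), 963, 383, 417, 686 and 166 in macrophage- and monocyte-like cells (main 486, 152, 176, 301 and 53) and 291, 305, 314, 351 and 165 in dendritic cell-like cells (main 85, 78, 94, 106 and 36). Scaling by the median of ratios moved the median gene by -0.30 in neutrophil-like and -0.21 in macrophage- and monocyte-like cells for the STING agonist against untreated. Thinning took 67 of 72 shares of cells with a UMI outside their counting interval. Depth limited the combination library most, where 46.7% of neutrophil-like cells held under 1000 UMIs.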
